A study of Mus musculus with 6 samples.

Results

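The 10 genes described here encode secreted regulators of blood vessel growth outside the VEGF family: Angpt2, Hgf, Prok2, Fgf1, Fgf2, Pdgfa, Pdgfb, Angptl4, Thbs1 and Sema3f. They form a list of names, and no measured value enters the rule that gathers them. All 10 were found by Ensembl identifier among the 47643 genes of the count files. The libraries hold CD45-EPCAM+ cells, which lack the pan-leukocyte marker and carry an epithelial adhesion molecule, from breast tumors of MMTV-PyMT mice, a strain written in full as FVB/N-Tg (MMTV-PyVT)634Mul/J. In these mice the mouse mammary tumor virus promoter drives the polyoma middle T antigen in mammary epithelium, where tumors then arise. The study's methods add that CD31+ and PDGFRα+ cells were gated out, so endothelial cells and many fibroblasts were removed by the sort. All 6 samples came from mice given B20-4.1.1, an antibody against VEGF-A, at a dose of 5 mg/kg with 2 intraperitoneal injections a week, from 7 weeks of age and for 6 weeks. Tumors without this antibody were not analysed here, so no value below measures an effect of the treatment. The study divides treated tumors into less and more hypoxic classes, and the class of each sample is not given in the labels, so the samples form 1 group and are called tumors 1 to 6.

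Endothelial cells sprout in response to VEGF, and other secreted factors can drive or restrain the same process. Fibroblast growth factors, hepatocyte growth factor and prokineticins act on receptors of endothelial cells, angiopoietin-2 loosens the contact of endothelium with its supporting cells through the receptor TIE2, and platelet-derived growth factors recruit pericytes and stromal cells. Thrombospondin-1 and semaphorin 3F restrain vessel growth, the former through CD36 and CD47 and the latter through neuropilin-2 and plexins. Angiopoietin-like 4 inhibits lipoprotein lipase, is a known target of PPAR and hypoxia-inducible transcription factors, and has been described as both promoting and restraining vessels. Because VEGF-A was neutralized in these mice, transcripts of the other factors in the tumor cells show which of these signals the epithelium could supply at the RNA level.

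Libraries were made with a 3′ method that counts reads near the polyadenylated end of a transcript, and raw counts per gene were deposited. Counts on genes lay between 2509482 in tumor 2 and 5893246 in tumor 1. Levels are given as CPM, counts on genes scaled to a common total, and as TPM, which also divides by the union exon length. A 3′ count depends little on length, so the order of the genes is given on both scales. A level of 3 counts was taken as the floor, which equals 0.509 to 1.20 CPM depending on the library, or 0.110 CPM over the 6 libraries together. Intervals are exact 95% Poisson intervals, and they and the floors cover counting error only. They treat each count as a separate molecule. Whether copies of a molecule were collapsed before counting is not given. The intervals, and the later test of spread beyond counting, may therefore understate even that error. The library of tumor 1 stood apart, with a median correlation across genes of 0.788 with the others against 0.905 to 0.939 for the rest. In bulk samples of this kind, fewer cells that express a gene and less of its RNA per cell cannot be told apart.

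The transcripts of the set fell into 3 ranges. Thbs1, Angptl4, Pdgfa and Sema3f were measured well above the floor in all 6 tumors, with median levels of 85.8, 29.6, 26.4 and 14.4 CPM. Fgf1, Fgf2 and Pdgfb had medians of 2.85, 2.82 and 1.36 CPM, close to the floor of the shallower libraries. Angpt2, Hgf and Prok2 had at most 1 count in any tumor. Thbs1, the thrombospondin gene, had the highest median of the 10 in CPM and in TPM, and 9.99% of the 21717 genes detected in at least 1 tumor had a median CPM at least as high.

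Per length, the order of the median levels was Thbs1 at 37.2 TPM, Pdgfa at 21.8, Angptl4 at 21.7, Sema3f at 7.11, Fgf1 at 1.33, Fgf2 at 1.04 and Pdgfb at 0.814 TPM, followed by the 3 genes at or next to 0. Neighbors in this order were compared within tumors by an exact two-sided sign-flip permutation test on log2(TPM + 1), with Benjamini-Hochberg adjustment over 9 pairs and a smallest possible p of 0.03125. Angptl4 exceeded Sema3f by 1.73, Sema3f exceeded Fgf1 by 1.65, and Pdgfb exceeded Angpt2 by 0.88 on this log2 scale, each in 6 of 6 tumors, with an exact adjusted p of 0.0938. These are the smallest adjusted values the 6 tumors gave, and no neighbor pair passed 0.05. Pairs at the smallest possible p still missed the threshold, so the test had little room to pass any pair. Pairs among Angpt2, Hgf and Prok2, at or next to 0, could not pass. Neighbors were also chosen by the medians of these same tumors, so the p-values only describe the order. Thbs1 exceeded Pdgfa by 0.46 in the mean and in 4 of 6 tumors (exact adjusted p = 0.394). Pdgfa and Angptl4 differed by -0.03, so their order was not resolved, and by median CPM Angptl4 stood ahead of Pdgfa. The pairs Fgf1 and Fgf2 (0.22, exact adjusted p = 0.352) and Fgf2 and Pdgfb (0.10, exact adjusted p = 1) were also not resolved.

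**Figure D1:**
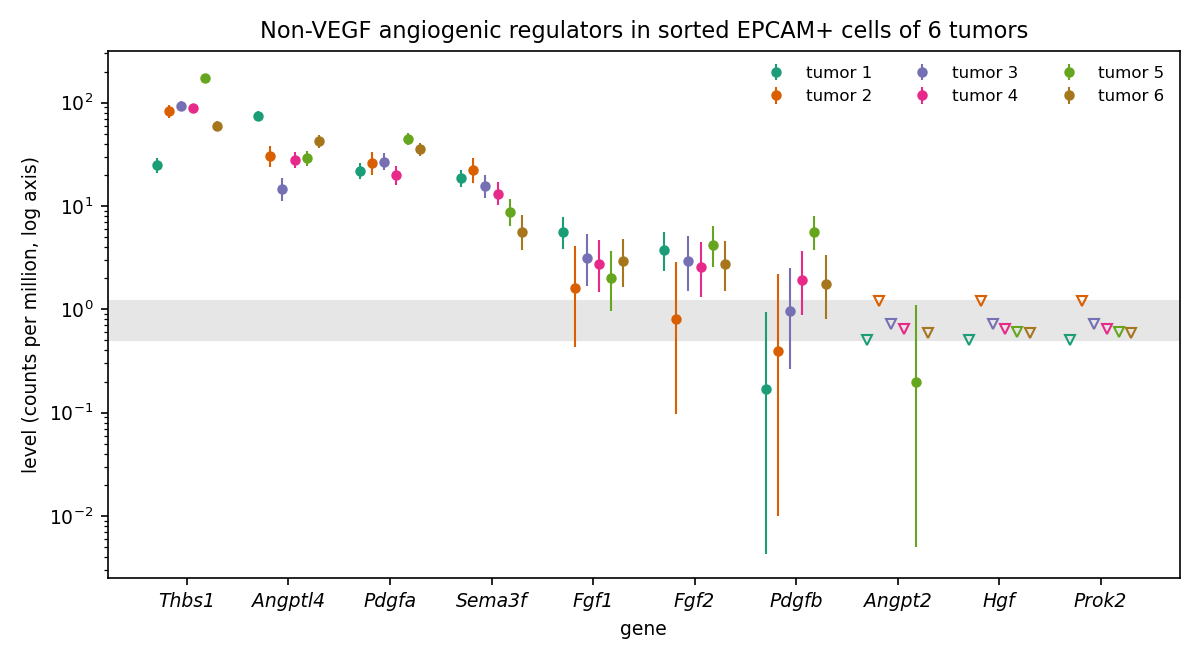
Level of each of the 10 regulators (x axis) in CPM on a log axis, with 1 point per tumor, exact 95% Poisson bars and, where a gene had no count, an open triangle at the level of 3 counts in that library. The gray band spans the floor of 0.509 to 1.20 CPM: Thbs1, Angptl4, Pdgfa and Sema3f lie above it in all 6 tumors, Fgf1, Fgf2 and Pdgfb lie near it, and Angpt2, Hgf and Prok2 lie at or under it.

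Among the ligands that promote vessel growth, 3 were not detectable at this depth. Hgf (chr5:16553495-16620152, plus strand, GRCm38), which encodes hepatocyte growth factor, had 0 counts in each of the 6 libraries. Prok2 (chr6:99711299-99726392, minus strand), which encodes a prokineticin usually made by myeloid cells such as neutrophils, likewise had 0 counts in each library. A total of 0 among 27358318 counts allows a level of up to 0.110 CPM for each of these genes over all tumors together. Angpt2 (chr8:18690263-18741562, minus strand), known above all as a product of endothelial cells, had 1 count in tumor 5 and 0 in the other 5 tumors. That count equals 0.200 CPM, with an interval from 0.00506 to 1.11 CPM, and lies under the floor of its library.

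The promoter of Prok2 is shown because, of the 4 genes of the set whose promoters were searched, it held the most matches to the core of the hypoxia response element. It was chosen for display after that count was seen. The sequence is the RefSeq promoter on GRCm38.p6, from 250 bases before to 50 after the annotated start, at chr6:99726343-99726642 on the minus strand, written 5′ to 3′ with matches to ACGTG or GCGTG on either strand in capitals.
Prok2: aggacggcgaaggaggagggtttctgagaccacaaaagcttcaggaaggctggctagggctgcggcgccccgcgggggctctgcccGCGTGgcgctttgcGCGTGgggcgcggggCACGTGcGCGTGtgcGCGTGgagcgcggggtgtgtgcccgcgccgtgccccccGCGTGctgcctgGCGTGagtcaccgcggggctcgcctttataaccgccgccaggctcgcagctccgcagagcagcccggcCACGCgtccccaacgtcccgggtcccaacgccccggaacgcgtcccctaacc
It held 9 matches, 7 on the strand shown and 2 on the other, and 1 palindromic CACGTG counts on both strands. As many matches were held by 0.0609% of the 32851 promoters of the same length, and at least 1 match by 43.8% of them. The 0 counts of Prok2 stand beside this count of letters as a description, and a match is neither a bound site nor a cause.

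Fgf1 and Fgf2 encode acidic and basic fibroblast growth factor, which lack a classical signal peptide and bind heparan sulfate. Both were detected at low levels. Fgf1, on chromosome 18, had 33, 4, 13, 13, 10 and 15 counts in tumors 1 to 6, which gave 5.60, 1.59, 3.15, 2.77, 2.00 and 2.93 CPM. Tumor 1 was highest, at 2.03 times the median of the others, and its interval of 3.85 to 7.86 CPM overlapped those of tumors 2, 3, 4 and 6 but not that of tumor 5, which ended at 3.67 CPM. Fgf2 (chr3:37348346-37410108, plus strand) had 22, 2, 12, 12, 21 and 14 counts, or 3.73, 0.797, 2.91, 2.55, 4.19 and 2.73 CPM. Only tumor 2, the shallowest library, was under its floor, and the intervals of all 6 tumors overlapped. Both genes overlap genes on the other strand, Arhgap26 for Fgf1 and Nudt6 for Fgf2 among them. Whether counting used the strand is not stated, so reads of such neighbors cannot be told apart from their own. Of the other regulators, only Hgf, Angptl4 and Sema3f overlap no annotated gene on the other strand. On the same strand, Hgf overlaps Gm43489 and Gm42975, Fgf2 overlaps Gm43439 and Pdgfb overlaps Mir7213. The part of these overlaps in the counts, among them the 0 counts of Hgf, was not tested.

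PDGF-A and PDGF-B are chains of dimeric growth factors that act on mesenchymal cells, PDGF-B being the chain best known for pericyte recruitment by endothelium. Pdgfa (chr5:138976014-138997370, minus strand) had 21.7, 25.9, 26.9, 19.8, 44.3 and 35.3 CPM in tumors 1 to 6, from 65 to 222 counts. Tumors 5 and 6 were the highest, and the interval of tumor 5, from 38.7 to 50.6 CPM, lay above those of tumors 1 to 4. The highest level was 2.24 times the lowest, the smallest such ratio among the 4 well-measured regulators. Pdgfb (chr15:79995874-80014977, minus strand) had 1, 1, 4, 9, 28 and 9 counts, or 0.170, 0.398, 0.970, 1.91, 5.59 and 1.76 CPM. Tumor 5 stood alone, at 5.76 times the median of the other 5, and its interval of 3.71 to 8.08 CPM lay above those of all the others. In TPM, Pdgfa was above Pdgfb in every tumor, with 35.6 against 3.36 TPM in tumor 5 and 21.8 against 0.589 TPM in tumor 3.

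Both RefSeq promoters of Pdgfa on GRCm38.p6, the gene of the well-measured 4 that the promoter table holds, are shown to place the same motif search beside a gene that was expressed. The former lies at chr5:138994232-138994531 and the latter at chr5:138994895-138995194, both on the minus strand, with capitals as above.
Pdgfa, promoter with no match: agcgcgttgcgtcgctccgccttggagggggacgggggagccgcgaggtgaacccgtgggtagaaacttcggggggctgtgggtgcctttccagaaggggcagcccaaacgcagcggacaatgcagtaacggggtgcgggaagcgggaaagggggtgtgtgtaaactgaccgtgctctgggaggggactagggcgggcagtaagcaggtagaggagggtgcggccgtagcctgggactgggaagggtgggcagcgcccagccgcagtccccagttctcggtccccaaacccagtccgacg
Pdgfa, promoter with 1 match: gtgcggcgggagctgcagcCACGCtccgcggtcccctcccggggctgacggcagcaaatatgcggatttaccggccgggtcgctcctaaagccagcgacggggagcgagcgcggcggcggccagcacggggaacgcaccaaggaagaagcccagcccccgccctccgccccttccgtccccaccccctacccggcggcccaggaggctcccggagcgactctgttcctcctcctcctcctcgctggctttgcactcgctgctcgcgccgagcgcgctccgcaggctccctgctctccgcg
The capitals in the latter mark 1 match on the strand opposite to that shown, a count that 43.8% of all promoters reach. GC content was 67.0% and 73.3% in these 2 promoters and 73.7% in that of Prok2.

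Angptl4 (chr17:33773750-33781830, minus strand) encodes angiopoietin-like 4 and overlaps no other annotated gene. Its levels in tumors 1 to 6 were 74.8, 30.3, 14.5, 28.1, 29.0 and 42.2 CPM, from 441, 76, 60, 132, 145 and 216 counts. Tumor 1 was the highest and tumor 3 the lowest, a 5.14-fold range, and tumors 2, 4 and 5 had overlapping intervals. The interval of tumor 1, from 68.0 to 82.2 CPM, lay above those of all other tumors. In the same library Plin2, a lipid droplet gene that PPAR factors induce, was also highest, at 951 CPM against 207 to 537 CPM in the other tumors, while Pdk4, another well-known PPAR target, had at most 3 counts in any tumor. Of the 8 genes of a PPAR target list, 5 were above the floor in every tumor, and the list summed to 1226 CPM in tumor 1, with 432 to 852 CPM in the others. Without Plin2 the sum was 275 CPM in tumor 1, inside the range of 226 to 324 CPM of the others.

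The restraining factors Thbs1 and Sema3f had their extremes in different tumors. Thbs1 (chr2:118111876-118127133, plus strand) encodes thrombospondin-1, an inhibitor of endothelial growth that also activates latent TGF-β. It had 146, 207, 383, 419, 874 and 307 counts, giving 24.8, 82.5, 92.9, 89.1, 175 and 59.9 CPM in tumors 1 to 6. Tumor 5 was the highest and tumor 1 the lowest, a 7.04-fold range, and neither interval overlapped that of any other tumor. Tumors 2, 3 and 4 had overlapping intervals. Sema3f (chr9:107681500-107710475, minus strand) encodes a semaphorin that repels endothelial cells. It had 18.5, 22.3, 15.5, 13.2, 8.79 and 5.66 CPM, from 109, 56, 64, 62, 44 and 29 counts. Tumor 2 was the highest and tumor 6 the lowest, a 3.94-fold range, and the interval of tumor 6, from 3.79 to 8.13 CPM, lay under those of tumors 1 to 4.

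Tumor 1 and tumor 5 held most of the extremes. In tumor 1 the levels of Angptl4 and Fgf1 were the highest and those of Thbs1 and Pdgfb the lowest of the 6. In tumor 5 Thbs1, Pdgfa, Pdgfb and Fgf2 were at their highest. The balance of Thbs1, the most abundant restraining factor among the 10 regulators, and Angptl4 was reversed in tumor 1, with 10.5 against 54.2 TPM. In tumor 6 the order depended on the scale, with 24.3 TPM for Thbs1 and 29.3 TPM for Angptl4 but 59.9 and 42.2 CPM. In tumors 2 to 5 Thbs1 was the higher, with 72.0 TPM against 20.5 TPM in tumor 5. Tumor 1 is also the library with the lowest correlation with the others, and the part of that in these values was not tested.

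**Figure D2:**
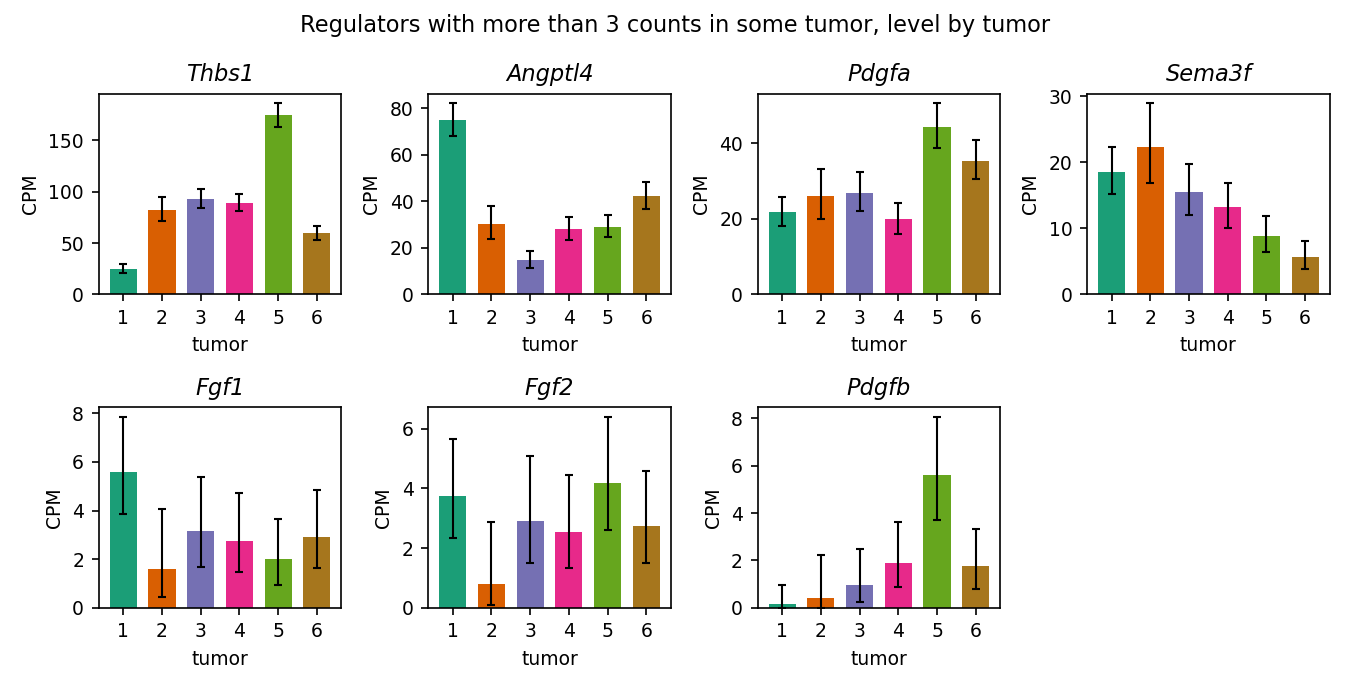
Level in CPM (y axis, from 0) of the 7 regulators with more than 3 counts in some tumor, with 1 bar per tumor (x axis) and exact 95% Poisson intervals as error bars. Thbs1 and Pdgfb peak in tumor 5, at 175 and 5.59 CPM, Angptl4 and Fgf1 in tumor 1, at 74.8 and 5.60 CPM, and Sema3f runs from 22.3 CPM in tumor 2 to 5.66 CPM in tumor 6.

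Whether these regulators differed between tumors by more than counting error was asked with edgeR's likelihood ratio test at a dispersion of 0, adjusted by the Benjamini-Hochberg method over the 12088 genes past a filter on low counts. Of the 10 regulators, 6 passed the filter, and Pdgfb, Angpt2, Hgf and Prok2 did not. Thbs1 (chi-square 735, edgeR adjusted p = 2.66e-155), Angptl4 (280, 1.08e-57), Pdgfa (79.6, 2.56e-15), Sema3f (55.7, 1.90e-10) and Fgf1 (13.4, 0.0230) varied beyond counting. Fgf2 did not pass (8.48, adjusted p = 0.141). The call of Fgf1 was lost without tumor 1 (edgeR adjusted p = 0.626) and without tumor 5 (0.0728). Thbs1 and Angptl4 kept their calls with smaller values. The chi-square of Angptl4 was 85.0 without tumor 1, and that of Thbs1 was 292 without tumor 1 and 307 without tumor 5. Calls were common, since 89.5% of the genes tested passed, so 5 of 6 is near the background, and each tumor is 1 library, so tumor and library are not separated.

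The estimated spread was largest for Thbs1 and Angptl4 among the 6 regulators tested. The biological coefficient of variation estimated by edgeR was 0.475 for Thbs1, 0.449 for Angptl4, 0.424 for Fgf1 and 0.419 for Sema3f. It was 0.405 for Fgf2 and 0.336 for Pdgfa, against a median of 0.354 over all genes. Relative to the trend for genes of their abundance, the dispersion was 1.84-fold for Thbs1, a ratio that 7.30% of genes reached or passed, and 1.66-fold for Angptl4, which 9.58% reached. Sema3f and Pdgfa lay near the trend, at 1.07-fold and 0.901-fold.

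The study classed its tumors by pimonidazole staining of hypoxic tissue, which is not among the labels used here. Its methods also compute a score from these files, the mean TPM of Vegfa, Slc2a1 and Car9, genes that hypoxia-inducible factors induce. The score stands in here for the staining. This score was 48.5, 37.2, 51.4, 76.6, 94.4 and 47.3 TPM in tumors 1 to 6, so tumors 5 and 4 were the highest and tumor 2 the lowest. As a geometric mean of the same genes, it was lowest in tumor 1, at 29.0 TPM against 29.7 TPM in tumor 2. Vegfa itself, the gene of the blocked factor, had 36.3, 48.2, 63.0, 103, 139 and 41.6 CPM. No regulator of the set changed with the score by the test used, edgeR's quasi-likelihood test of the slope on log2 of the score over 12085 genes with the score genes left out. The smallest adjusted p among the 6 regulators tested was 0.954.

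The fitted slopes, in log2 units per doubling of the score, pointed in both directions. They were 0.89 ± 0.49 (SE) for Thbs1, 0.68 ± 0.64 for Fgf2 and 0.27 ± 0.39 for Pdgfa, and -0.41 ± 0.69 for Fgf1, -0.52 ± 0.60 for Angptl4 and -0.74 ± 0.49 for Sema3f. The median slope of all genes tested was -0.04. None of the 6 had an unadjusted p under 0.05, the smallest being 0.0994 for Thbs1 (edgeR). Over all genes, 0% were called at an adjusted p of 0.05 by edgeR (0 of 12085) and 4.22% had an unadjusted p under 0.05 (510 genes), while DESeq2 called 15 genes and none of the 6 regulators. The 6 tumors thus gave few calls in any gene, and a slope that misses the threshold does not show that a gene did not follow the score. Without tumor 5 the slopes of Pdgfa and Fgf1 changed sign, to -0.57 and 0.16. The slope of Thbs1 was 0.23 without tumor 5 and 1.52 without tumor 2, that of Fgf2 was 0.20 without tumor 2, and that of Fgf1 was -0.12 without tumor 1 and -0.99 without tumor 2. That of Angptl4 was -0.20 without tumor 1 and -0.85 without tumor 2, that of Sema3f was -0.39 without tumor 2, and that of Pdgfa was 0.52 without tumor 4 and 0.44 without tumor 6.

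Across the 6 tumors, Pearson's r of the log2 score with a gene's log2(TMM-scaled CPM + 1) was 0.63 for Fgf2 (exact permutation p = 0.169), 0.54 for Thbs1 (0.281), 0.23 for Pdgfa (0.686), -0.17 for Fgf1 (0.764), -0.22 for Angptl4 (0.669) and -0.47 for Sema3f (0.333). Spearman's rho was 0.49, 0.71, -0.03, -0.09, -0.54 and -0.43 for the same genes, with exact p from 0.136 to 1. All p-values are two-sided over 720 orders of the tumors, and after Benjamini-Hochberg adjustment over 6 genes they were 0.667 to 0.764 for r and 0.629 to 1 for rho. Without tumors 4 and 5, the farthest from the median score, r was 0.92 for Fgf2, -0.31 for Thbs1, -0.07 for Pdgfa, 0.73 for Fgf1, -0.11 for Angptl4 and -0.46 for Sema3f, so the sign for Thbs1, Pdgfa and Fgf1 rested on those tumors. With only tumor 2 left out, where Fgf2 was under its floor, r for Fgf2 was 0.28. With the geometric mean score and all tumors, r was 0.44 for Fgf2, 0.74 for Thbs1 and 0.30 for Pdgfa. It was -0.42 for Fgf1, -0.42 for Angptl4 and -0.43 for Sema3f, and 0 of these passed after adjustment. Sample identifiers in the labels carry a pair of prefixes, shared by 4 tumors and by 2, and the smaller set gives no slope. Within the 4 tumors of the larger set, a fit added after the data were seen, the edgeR slope was 1.81 ± 0.63 for Thbs1 and -1.19 ± 0.51 for Angptl4, with unadjusted p of 0.0239 and 0.0499 and an adjusted p of 0.907 for both. In that fit 2.78% of all genes had an unadjusted p under 0.05, and the other 4 slopes ran from -1.09 for Fgf1 to 0.27 for Pdgfa. With the prefix as a term in the edgeR fit the slopes of the 6 genes kept their signs, at 1.59 for Thbs1 and -1.36 for Angptl4, with adjusted p from 0.889 to 0.938.

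Pdgfb was too low for the filter. Fitted without a filter, its slope was 2.33 ± 0.85 log2 units per doubling of the score, with an unadjusted p of 0.0139 and an adjusted p of 0.764 (edgeR). Without tumor 5, which held 28 of its 52 counts, the slope was 1.61 ± 1.57 (unadjusted p = 0.314, edgeR). This fit was added after the levels had been seen.

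**Figure D3:**
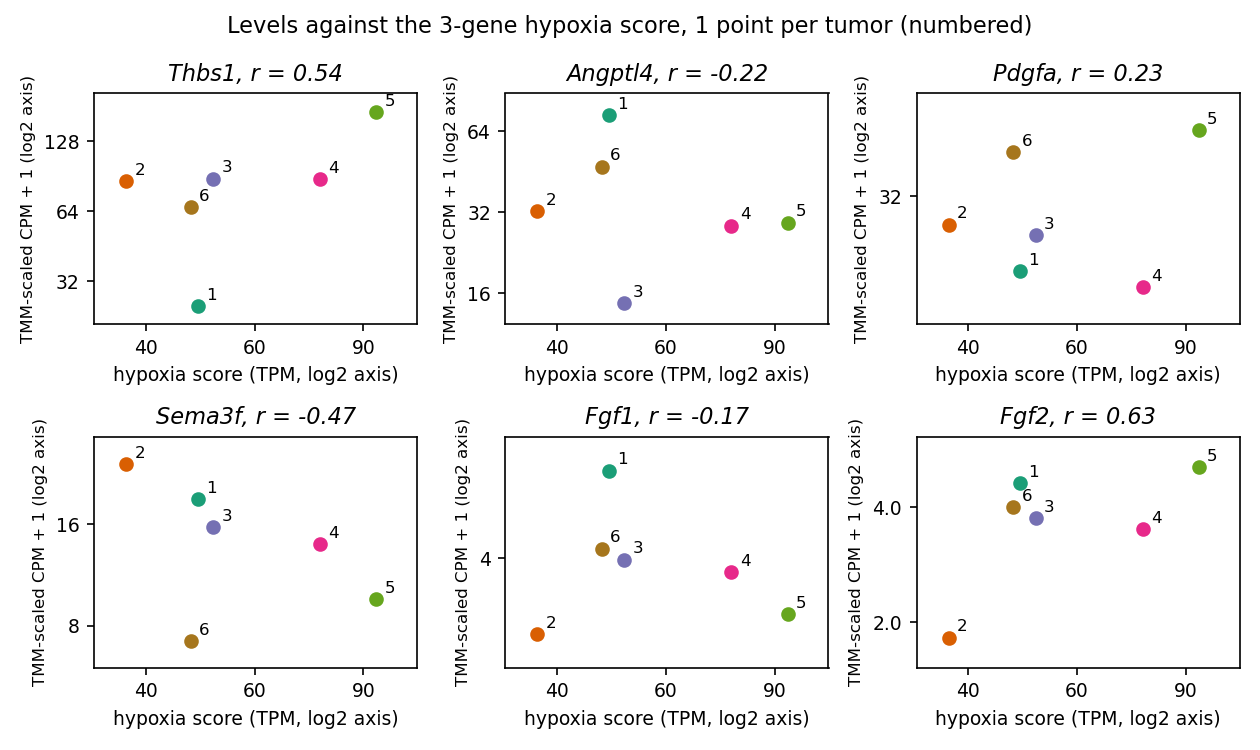
Level of 6 regulators as TMM-scaled CPM + 1 (y axis, log2) against the hypoxia score in TPM (x axis, log2), with 1 numbered point per tumor and Pearson's r in each title. Thbs1 lies highest at tumor 5 and lowest at tumor 1, which have scores of 94.4 and 48.5 TPM, and no panel shows a relation that passes its test.

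The receptors of these ligands show which signals the epithelial cells themselves could receive. Of 17 receptors and co-receptors in the list, 9 were above the floor in all 6 tumors. Met, the receptor of HGF, was measured at 125 to 227 CPM with a median of 155 CPM, next to 0 counts of Hgf. Of the FGF receptors, Fgfr1 had 123 to 321 CPM, Fgfr3 2.73 to 7.97 CPM and Fgfr2 2.00 to 9.46 CPM, and Fgfr4 had at most 2 counts. Tek, which encodes TIE2, had at most 2 counts and Tie1 had 0, so neither angiopoietin-2 nor its receptors exceeded the floor. Angpt1, another angiopoietin gene, was above the floor in every tumor, at 13.5 to 42.2 CPM. Prokr1 had at most 3 counts and Prokr2 had 0.

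Receptors of the PDGF, thrombospondin and semaphorin ligands were measured too, and the list holds none for angiopoietin-like 4. Pdgfra had 1.70 to 3.40 CPM and Pdgfrb at most 4 counts, in cells whose gate removed PDGFRα+ cells. For thrombospondin-1, Cd47 was measured at 67.4 to 121 CPM and Cd36 had at most 4 counts. For semaphorin 3F, Nrp2 had 1.70 to 7.39 CPM, and the plexins Plxna3 and Plxna1 had 28.0 to 80.3 and 20.4 to 65.0 CPM, both highest in tumor 1. Of the 10 receptors tested for a slope on the score, 0 were called by edgeR after adjustment and 0 had an unadjusted p under 0.05. Their median slope was -0.02.

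**Figure D4:**
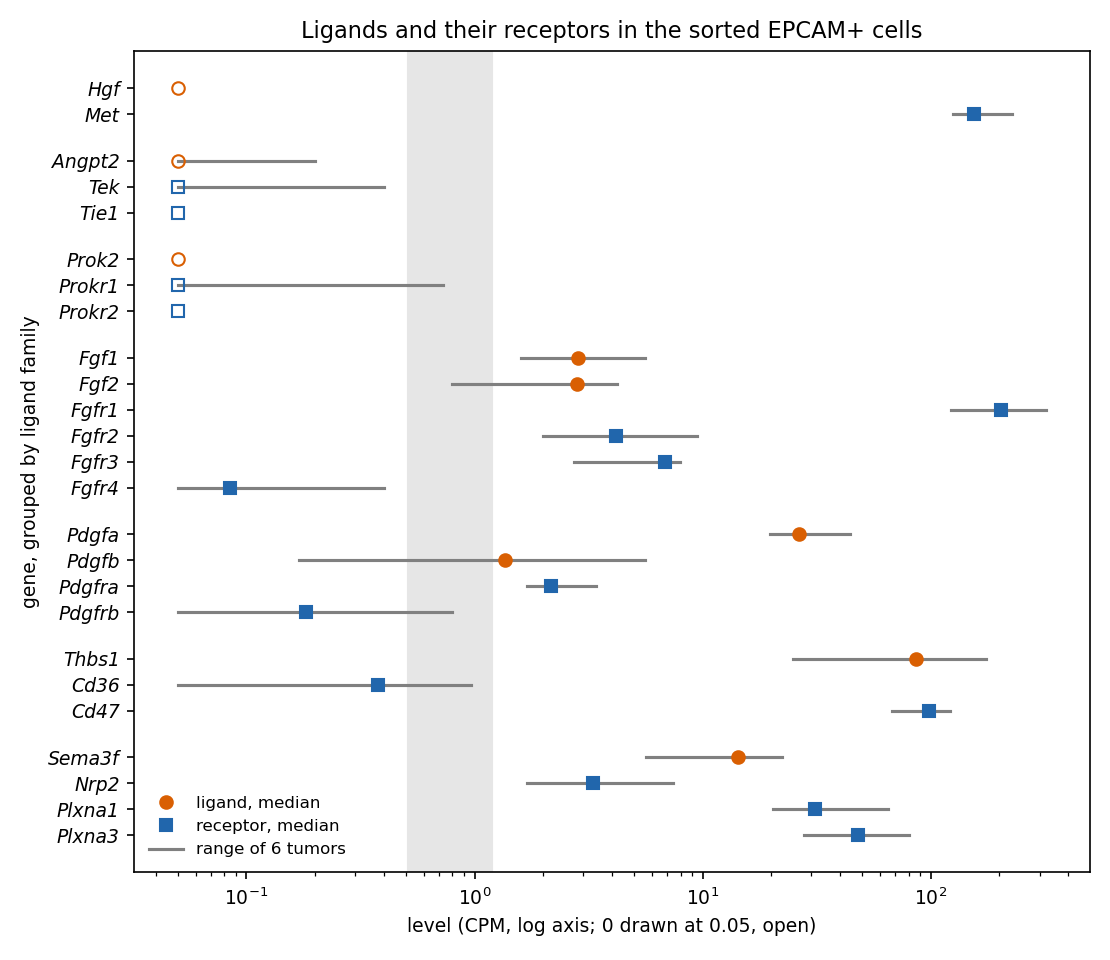
Median level (symbols) and range over 6 tumors (lines) in CPM on a log axis (x axis) for ligands (circles) and receptors (squares), grouped by family on the y axis, with values of 0 drawn open at the left edge and the floor as a gray band. Met and Fgfr1 stand above 100 CPM, while Hgf, Angpt2, Prok2, Tie1 and Prokr2 have a median of 0.

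Several of the ligands are processed or held outside the cell, and genes for this were expressed. Among 12 proteases and inhibitors that process them, 9 were above the floor in every tumor. Furin, a convertase that can cleave the PDGF chains, had 158 to 573 CPM and was highest in tumor 1. St14, which encodes matriptase, an activator of HGF, had 42.3 to 102 CPM, and its inhibitors Spint1 and Spint2 had 33.9 to 45.1 and 14.6 to 52.7 CPM, whereas Hgfac, an HGF activator of plasma, had at most 3 counts. Of the 6 heparan sulfate carriers, 5 were above the floor in every tumor, with Sdc4 at 55.8 to 202 CPM. No gene of either list was called by edgeR after adjustment. Pcsk6 (slope 1.31) and Sdc1 (slope 0.78), each named after its value was seen, had an unadjusted p under 0.05, as did 4.22% of all genes. Without tumor 5 neither did, with slopes of 1.34 for Pcsk6 (unadjusted p = 0.0834, edgeR) and 0.26 for Sdc1 (0.617).

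Of 23 further proangiogenic factors, 15 were above the floor in every tumor, led by Grn, the granulin precursor, at 277 to 845 CPM, Ccn1 at 76.1 to 191 CPM, Hbegf at 39.8 to 151 CPM and Pdgfc, another PDGF chain, at 45.3 to 93.5 CPM. Of the 15 tested against the score, 0 were called after adjustment by edgeR's quasi-likelihood test, 2 had an unadjusted p under 0.05 with a positive slope (Ccn2, 2.46, and Adm, 1.73) and 1 with a negative slope (Mdk, -1.66), against 4.22% of all genes in either direction, and their median slope was 0.18. Without tumor 5 the slope of Mdk was -1.01 (unadjusted p = 0.194, edgeR), and Apln (1.68), Adm and Ccn2 were the 3 at an unadjusted p under 0.05. The share of all genes in that fit was 0.643%. Angpt4, Lep and Tymp had 0 counts in all tumors.

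Of 16 further antiangiogenic factors, 7 were above the floor in every tumor. Timp3, a metalloprotease inhibitor that also blocks VEGF receptor binding, had 86.5 to 177 CPM in tumors 1 to 4 and 6 and 781 CPM in tumor 5. Adamts1, a protease that releases fragments of thrombospondins, had 13.1 to 57.9 CPM in those tumors and 201 CPM in tumor 5, and Sparc had 18.7 to 27.3 and 169 CPM. The sum of the list was 1250 CPM in tumor 5, and no other tumor exceeded 274 CPM. Against the score, 0 of the 7 tested were called after adjustment by edgeR, and 4 had an unadjusted p under 0.05 with a positive slope, against 4.22% of all genes in either direction: Adamts1 (2.75), Timp3 (2.05), Sparc (1.78) and Col18a1 (1.75), of which Col18a1 was named after its value was seen. The median slope of the list was 1.75. Without tumor 5, 1 of 6 tested had an unadjusted p under 0.05 (Adamts1, slope 1.74), and the slopes of Timp3, Sparc and Col18a1 were 0.57, -0.66 and 0.51. Over all genes the share at an unadjusted p under 0.05 without tumor 5 was 0.643%.

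As a reading of the score, a list of 10 HIF target genes that share none with it had a median slope of 0.81, and all 10 slopes were positive. Over all genes tested, 5654 of 12085 slopes were positive and the median slope was -0.04. None of the 10 was called after adjustment by edgeR, and 4 had an unadjusted p under 0.05, against 4.22% of all genes: Ndrg1, Egln3, P4ha1 and Kdm3a. That count was 6 without tumor 1 and 2 without tumor 2 or tumor 5, and without tumor 5 the 2 were Egln3 and Ddit4. The share of all genes moved too, to 8.24% without tumor 1, 3.4% without tumor 2 and 0.643% without tumor 5. Ndrg1, the most abundant of them, had 451 and 491 CPM in tumors 4 and 5 and 159 to 308 CPM in the others. Angptl4, which hypoxia-inducible factors are known to induce, had 28.1 and 29.0 CPM in the same tumors 4 and 5. The PPAR target list had a median slope of 0.01 and 0 genes at an unadjusted p under 0.05 among 5 tested.

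Markers of other cells were measured in the same libraries, since several of the regulators are products of endothelium, stroma or myeloid cells. The 7 luminal epithelial markers summed to 3957 to 4874 CPM, with Epcam at 611 to 972 CPM. The 6 endothelial markers summed to 3.90 to 8.97 CPM, with Emcn and Cldn5 at 0 in every tumor and Pecam1 at most at 2.04 CPM. Fibroblast markers summed to 15.1 to 25.9 CPM. Pericyte markers summed to 46.4 to 82.6 CPM, nearly all of it Notch3, with Pdgfrb at most at 0.799 CPM. Platelet markers, which bear on Thbs1 and the PDGF chains, summed to 5.32 to 18.0 CPM, were highest in tumor 1 and mostly Itga2b, with Ppbp at 0. Pf4, platelet factor 4, was instead highest in tumor 5, with 11 counts or 2.20 CPM against at most 0.485 CPM elsewhere, and the 1 count of Gp9 was also there. Without Itga2b the list summed to 2.60 CPM in tumor 5 and at most 1.36 CPM elsewhere, and its part in the levels of Thbs1 and the PDGF chains was not tested.

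Other sums moved with single tumors. Basal epithelial markers had a sum of 502 CPM in tumor 5, led by Krt14, against 131 to 286 CPM elsewhere, in the tumor with the highest Thbs1, Pdgfa and Pdgfb. This sum was Krt14 and Krt17, at 359 and 127 CPM. The other 4 basal markers summed to 15.6 CPM in tumor 5, inside the range of 8.48 to 33.4 CPM of the other tumors, and Krt5 and Trp63 were highest in tumor 4. The part of basal cells in the levels of the regulators was not tested. Macrophage markers, led by Lyz2, gave 215 CPM in tumor 3 against 14.7 to 48.1 CPM elsewhere, and erythroid markers 778 CPM in tumor 3 against 5.08 to 63.3 CPM elsewhere. Tumor 3 held the lowest Angptl4 and no highest level of any regulator. Neutrophil markers summed to 74.8 to 233 CPM, nearly all S100a8, with Csf3r at 0, and Ptprc, the gene of CD45, reached 3.39 CPM.

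For the 4 regulators that averaged at least 10 CPM, the genes with the most similar profile over the 6 tumors are given as a description only, by Pearson's r among 8872 genes. Thbs1 was nearest to Myef2, Atad5, Wdr35, Tgif1 and Mpdz (r from 0.986 to 0.996), and Angptl4 to Xrcc5, Bak1, Psmc1, Spast and Stom (0.985 to 0.996). Sema3f was nearest to Clk2, Ppp1r13b, Nsd2, Crebzf and Myo9b (0.990 to 0.995), and Pdgfa to Capzb, Gskip, Pabpc4, Rpp30 and Pfn1 (0.964 to 0.975). With 6 points and 8872 genes, high values occur often: 1.85% of the genes had r over 0.9 with Thbs1, 1.31% with Angptl4, 2.25% with Sema3f and 0.327% with Pdgfa.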

How the data were processed

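RNA of sorted cells from 6 tumors was read with a 3′ kit whose primers carry identifiers of 6 bases. On the Bluebee platform the authors used bbduk to trim reads, STAR 2.5 to align them to the GRCm38 (mm10) genome and HTSeq to obtain gene counts, which were deposited without normalization. Collapsing by identifier, strand use in counting and the annotation release are not given in the sources used here. In each file 5 lines stand for reads outside genes or not assigned, 16.1 to 41.4% of the total, and these were dropped. Of the identifiers, 47224 matched GENCODE M21, which also gave lengths and coordinates, and 419 did not.

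From the counts, CPM, TPM and TMM-scaled CPM were computed. Genes needed the CPM of 10 counts at the median library in 3 tumors and a total of 15 counts (12088 kept). Tests used R 4.3.3, edgeR 4.0.16, DESeq2 1.42.0 as an alternative, and Python 3.11.15 with scipy 1.17.1. The threshold was an adjusted p of 0.05. The edgeR fits were first run on simulated data, with planted slopes larger than those of the 6 regulators tested. Slopes of the size seen here were not simulated. The labels name 6 separate samples without stating separate animals, so p-values measure the spread between these samples, which may be in part technical. No pair of libraries differed by as little as counting noise (chi-square per degree of freedom 20.7 to 132). Depth was a median of 4.85e+06 counts per library.

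Alternatives were other scalings, pseudocounts, filters and score definitions, a term for the identifier prefix, each tumor left out in turn and, added after the data were seen, the 4 tumors of the larger prefix alone. Members and gene lists were chosen with earlier results of these data known. Named genes are the 10 members, the 4 most abundant genes of each list and any called with the score, leading and defining markers, the 5 genes of most similar profile, and Vegfa. Receptors beyond these, Angpt1, list genes at or near 0 and list genes with an unadjusted p under 0.05 are named outside this rule, after their values were seen. Hypoxia classes, vehicle-treated tumors and CD45+ cells were not analysed here.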

Additional observations from a re-analysis of the deposited data

Results flagged for a closer look

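The level of Pdgfb in tumor 5 was far from the others. Its 5.59 CPM exceeded the next tumor, at 1.91 CPM, by a gap that made up 0.678 of the whole range, above Dixon's 95% critical value for a group of this size. The other 5 tumors had 1 to 9 counts and tumor 5 had 28. Of 7 regulators compared in this way this was the only flag, with 0.35 expected by chance.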

How the results depend on the processing

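The median levels kept their values to within the spread between tumors under all 90 alternatives of scaling and omission. This check had little room to fail. The medians of Angpt2, Hgf and Prok2 were 0 in every setting, and leaving out 1 tumor can move a median only to a neighboring middle value. No gene was called with the hypoxia score by edgeR's quasi-likelihood test, against 15 by DESeq2's Wald test, 10 without a filter on low counts, and 0 to 2 when each tumor was left out, with the 2 appearing without tumor 1. The cause of these differences was not tested. Of 78 alternative slopes of the regulators 76 kept their sign, and of 60 alternative values of r 57 did. The exceptions were Fgf1 and Pdgfa. Over the fits without 1 tumor their slopes ran from -0.99 to 0.16 and from -0.57 to 0.52, and their r from -0.77 to 0.22 and from -0.53 to 0.62. The number of genes that varied beyond counting was 8966 to 10482 without 1 tumor, against 10817, with fewer libraries in each of those fits. Of 48 alternative spread tests of the regulators 46 kept their call, and the 2 that did not were those of Fgf1 without tumor 1 and without tumor 5. The summed levels of list and marker genes moved by more than the spread between tumors in 4 of 32 alternatives, all from leaving the 10 most abundant genes out of the total. No paired analysis was possible because the samples form 1 group. Depth limits Fgf2, Pdgfb, Angpt2, Hgf and Prok2, whose levels lie at or under 3 counts in some or all libraries.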
